A study of Mus musculus with 15 samples.

Results

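The 50 genes described here enter, drive or complete mitosis, and they were chosen by name from the 23866 genes of a kidney count table. All 50 had a row of counts. They were followed in 14 kidneys of male C57BL/6 mice from 15 in the series. The CCl4+EtOH group held 3 kidneys from mice given carbon tetrachloride (CCl4, a solvent toxic to liver and kidney) by intraperitoneal injection for 6 weeks and ethanol (EtOH) for 4 weeks. Its titles name CCl4 a second time before EtOH, and the source labels do not. The CCl4 group held 4 kidneys, replicates 1 and 2 after 6 weeks of CCl4 and replicates 3 and 4 after 6 weeks plus 4 weeks at a lower dose. The EtOH group held 4 kidneys after olive oil for 6 weeks and EtOH for 4 weeks. The olive oil group held 3 kidneys after 6 weeks of olive oil, the carrier that the EtOH mice received too. A further olive oil sample was not analysed here. The olive oil mice and CCl4 replicates 1 and 2 had no second course of 4 weeks, so treatment and the length of the experiment cannot be told apart in those contrasts.

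A cell enters mitosis when cyclin B binds and activates the kinase Cdk1. The condensin complex then compacts the chromosomes, kinetochores tie them to the spindle, and a checkpoint holds back the anaphase promoting complex until every chromosome is attached. Most of these genes are transcribed in late S, G2 and M phase, so their transcripts are scarce in an organ such as the adult kidney, where few tubule cells divide, and are known to appear when injured tubule cells re-enter the cell cycle.

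Libraries held between 16.4 and 23.5 M counts. Levels are in CPM, counts relative to a library size scaled by trimmed mean of M values (TMM), and folds are log2 values from edgeR with adjusted p-values over 16105 genes. Of the 50 genes, 49 passed the filter on low counts, and Cdc25c did not. Ttk and Kif2c would not have passed over the 11 libraries of the other groups alone, so their entry into the test rested on the CCl4+EtOH libraries. Whole kidneys were sequenced, so more dividing cells and more RNA of these genes per cell cannot be told apart. Proximal tubule genes were abundant in every library. The 8 proximal tubule markers summed to 6059, 5741 and 16757 CPM in CCl4+EtOH kidneys, 18043 to 20320 CPM in CCl4 kidneys, 16187 to 19396 CPM in EtOH kidneys and 16189 to 19013 CPM in olive oil kidneys.

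Mitosis genes rose in kidneys of mice that received CCl4 and EtOH, and none of them passed the test after either treatment alone. Against olive oil, 45 of the 49 genes tested were higher in CCl4+EtOH kidneys and 0 were lower, where 18.9% of all genes tested were called higher and 16.6% lower. Their median log2 fold change was 2.63, beside 0.02 over all genes tested. With no filter on low counts, 46 of the 50 genes were called higher, where 14.1% of 20891 genes were. Numbers in the titles, which no label calls a batch, were low in all 3 olive oil mice analysed and high in all CCl4+EtOH mice. With a term for low or high title numbers, 15 of the mitosis genes were called higher, where 9.74% of all genes were. The median of the members was 2.35 in that fit. All 3 CCl4+EtOH libraries lay above all 3 olive oil libraries in 36 of the 50 genes, where 22.9% of all genes tested did. The summed level of the 50 genes was 1255, 569 and 235 CPM in CCl4+EtOH replicates 1, 2 and 3, against 204, 179 and 198 CPM in the olive oil libraries. It was 197, 209.6, 217 and 280.04 CPM in the CCl4 libraries and 185, 183, 158 and 164 CPM in the EtOH libraries. Replicate 1 of the CCl4+EtOH group was thus several times above replicate 3, and replicate 3 lay below CCl4 replicate 4.

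**Figure D1:**
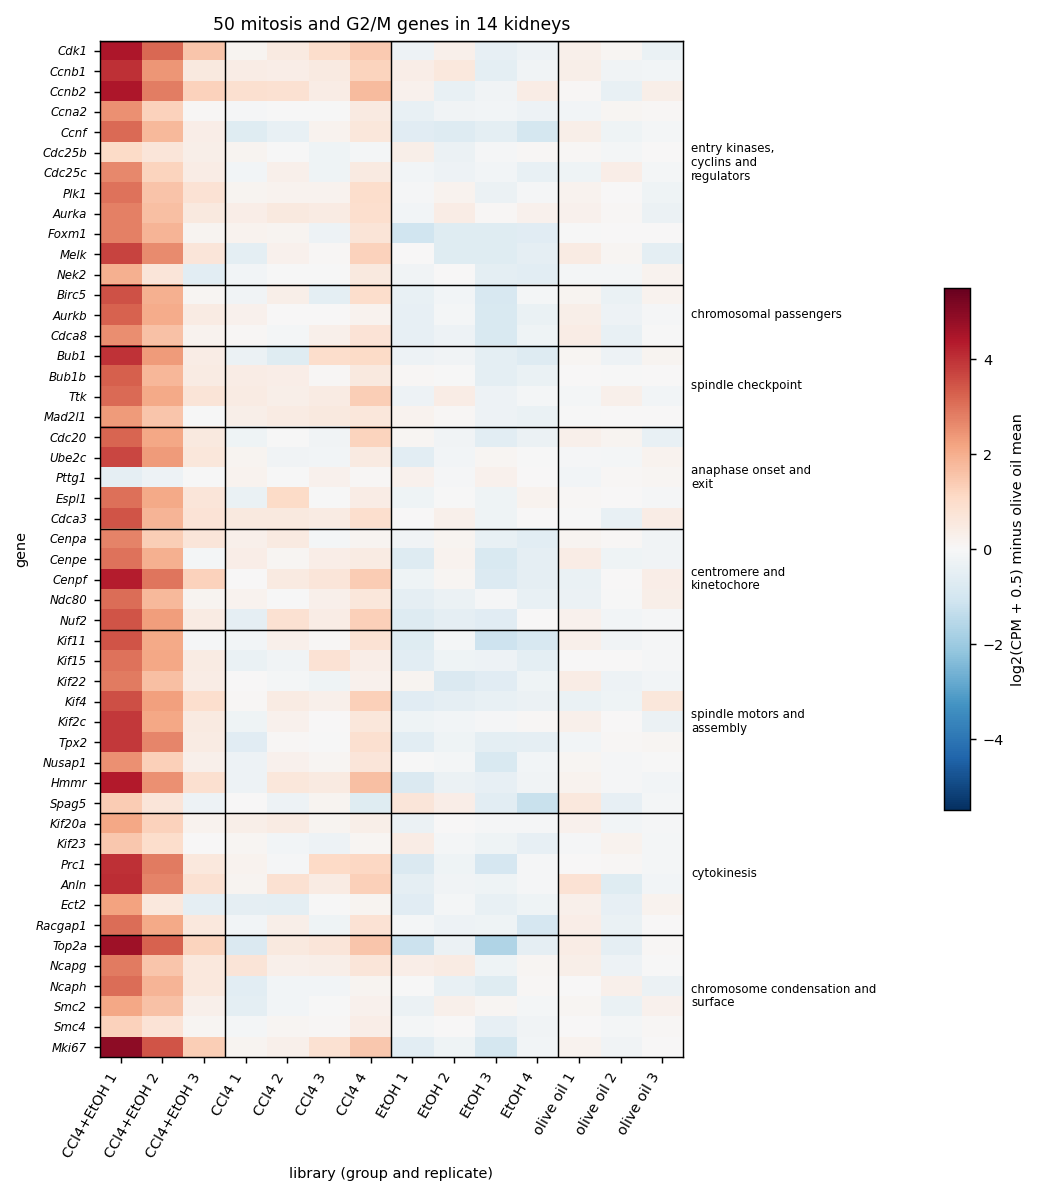
Level of each of the 50 genes (rows, by role) in each of the 14 libraries (columns), as log2(CPM + 0.5) minus the olive oil mean, with red above and blue below that mean. CCl4+EtOH replicates 1 and 2 are red for 49 genes, replicate 3 is paler, CCl4 replicate 4 is light red for most genes, and Pttg1 is the exception in its row.

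The promoters of these genes are shown because late cell-cycle genes are known for a shared promoter grammar. Paired CCAAT boxes, the site of the factor NF-Y, stand upstream of a cell cycle homology region, TTTGAA or TTCGAA, at which the DREAM repressor binds in resting cells and B-Myb and FoxM1 complexes in dividing cells. The 250 bases before the start were read from RefSeq on build GRCm38.p6, which is newer than the mm9 build named for the counts. A window was on hand for 43 of the 50 genes, with 45 windows in all because Ect2 and Prc1 have 2 each. Ccna2, Aurkb, Kif20a, Tpx2, Cdc25c, Foxm1 and Smc4 had no window. Both strands were searched, so CCAAT was also counted as ATTGG and TTTGAA as TTCAAA, and TTCGAA reads the same on both strands. In the windows below, the capitals mark these motifs, and no 2 matches overlapped.
Cdk1 (chr10:69352913-69353162, minus strand): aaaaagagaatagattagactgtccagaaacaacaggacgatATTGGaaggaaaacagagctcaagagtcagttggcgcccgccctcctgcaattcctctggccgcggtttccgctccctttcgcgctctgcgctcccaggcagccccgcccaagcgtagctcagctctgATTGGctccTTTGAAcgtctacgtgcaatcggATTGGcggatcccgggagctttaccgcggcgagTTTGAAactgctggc
Ccnb1 (chr13:100786487-100786736, minus strand): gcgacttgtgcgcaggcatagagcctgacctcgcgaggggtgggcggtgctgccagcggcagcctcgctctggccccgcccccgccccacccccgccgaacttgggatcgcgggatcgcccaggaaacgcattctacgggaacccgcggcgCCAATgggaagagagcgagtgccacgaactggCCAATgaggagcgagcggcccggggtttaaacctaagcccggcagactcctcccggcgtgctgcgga
Ccnb2 (chr9:70421555-70421804, minus strand): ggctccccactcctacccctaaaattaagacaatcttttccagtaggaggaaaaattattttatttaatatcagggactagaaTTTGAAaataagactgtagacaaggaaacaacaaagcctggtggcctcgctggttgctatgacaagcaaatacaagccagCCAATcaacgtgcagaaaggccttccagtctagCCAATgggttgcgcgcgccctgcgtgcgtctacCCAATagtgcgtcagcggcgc
Mki67 (chr7:135716380-135716629, minus strand): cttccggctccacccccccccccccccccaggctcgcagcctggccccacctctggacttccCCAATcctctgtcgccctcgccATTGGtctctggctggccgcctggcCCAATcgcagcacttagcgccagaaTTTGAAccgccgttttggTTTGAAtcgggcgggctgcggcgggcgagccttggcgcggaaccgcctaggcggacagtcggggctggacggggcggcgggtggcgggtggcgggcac
Pttg1 (chr11:43425982-43426231, minus strand): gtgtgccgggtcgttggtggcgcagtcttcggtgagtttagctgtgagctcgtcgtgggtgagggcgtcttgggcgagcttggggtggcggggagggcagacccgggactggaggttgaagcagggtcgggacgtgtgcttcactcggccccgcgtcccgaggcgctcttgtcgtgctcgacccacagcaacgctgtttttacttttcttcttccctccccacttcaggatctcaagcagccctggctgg

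CCAAT was present in 75.6% of the 45 windows, against 33.8% of 32851 promoter windows of the same length. At least 2 CCAAT boxes stood in 44.4% of the windows and in 10.1% of all windows. TTTGAA was present in 37.8% of the windows and in 16.0% of all windows, and TTCGAA in 4.44% and 1.34%. CCAAT together with either of the other motifs was found in 35.6% of the windows and in 6.02% of all windows. Cdk1 carried 3 CCAAT boxes and 2 TTTGAA motifs, the nearest of them starting 15 bases before the start. Ccnb2 carried 3 CCAAT boxes starting 87, 54 and 21 bases before the start, and its TTTGAA motif lay upstream of them, at 167 bases. Mki67 carried 3 CCAAT boxes and 2 TTTGAA motifs. The shares above count motifs anywhere in a window, whatever their order and spacing. Ccnb1 carried 2 CCAAT boxes, at 99 and 67 bases, and neither other motif. The Pttg1 window held none of these letters. A match is a description of the sequence and was not tied to binding in these kidneys.

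Mitotic entry kinases, cyclins and their regulators were higher in 10 of the 11 members tested, with a median log2 fold change of 2.62. Cdk1, the kinase that triggers mitosis, was at 27.5, 11.1 and 3.19 CPM in CCl4+EtOH replicates 1 to 3, against 1.06, 0.883 and 0.488 CPM in olive oil kidneys. It was at 0.933, 1.33, 2.01 and 2.98 CPM in CCl4 kidneys and 0.545, 1.04, 0.442 and 0.571 CPM in EtOH kidneys. Every CCl4+EtOH library exceeded all 11 others, and the log2 fold change over olive oil was 4.10 ± 0.69 (SE, adjusted p = 0.000913). Ccnb1, the cyclin B1 partner of Cdk1, was at 11.1, 3.39 and 0.561 CPM in CCl4+EtOH kidneys, against 0.411, 0.133 and 0.163 CPM in olive oil kidneys. CCl4 kidneys held 0.466, 0.444, 0.532 and 1.22 CPM of Ccnb1, and EtOH kidneys 0.446, 0.594, 0 and 0.127 CPM, where 3 counts in the library at 0 would be 0.147 CPM. Its log2 fold change over olive oil was 4.43 ± 1.04 (adjusted p = 0.00575), the highest of the 49, over olive oil libraries with 7, 3 and 3 counts of it. CCl4 replicate 4 lay above CCl4+EtOH replicate 3. Ccnb2, the second B-type cyclin, was at 23.9, 7.55 and 2.20 CPM in CCl4+EtOH kidneys, against 0.704, 0.353 and 0.921 CPM in olive oil kidneys.

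Ccna2, the cyclin of S phase and early mitosis, differed less. It was at 53.1, 22.2 and 9.33 CPM in CCl4+EtOH kidneys, against 7.92, 9.59 and 9.27 CPM in olive oil kidneys, and the ranges overlapped. Its log2 fold change was 1.66 ± 0.43 (adjusted p = 0.0101). CCl4 kidneys held 8.45, 8.83, 8.62 and 12.6 CPM of Ccna2 and EtOH kidneys 6.64, 7.67, 7.997 and 7.23 CPM. Of its exon bases 10.4% lie in exons of Exosc9 on the other strand. Cdc25b, a phosphatase that activates Cdk1, was at 26.9, 20.01 and 15.8 CPM in CCl4+EtOH kidneys and 13.2, 11.6 and 12.8 CPM in olive oil kidneys, a log2 fold change of 0.74 ± 0.19 (adjusted p = 0.0099) with no overlap between these groups. CCl4 kidneys held 14.1, 12.3, 10.5 and 11.6 CPM of Cdc25b and EtOH kidneys 16.0, 9.79, 12.1 and 13.2 CPM. Cdc25c, the related phosphatase that was not tested, was at 3.62, 1.05 and 0.389 CPM in CCl4+EtOH kidneys, against 0.0587, 0.353 and 0.108 CPM in olive oil kidneys. It was at 0.104, 0.296, 0.0591 and 0.426 CPM in CCl4 kidneys and 0.0991, 0.0495, 0.0981 and 0 CPM in EtOH kidneys, where the library at 0 would show 0.190 CPM at 3 counts.

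Plk1, the polo-like kinase of spindle assembly and mitotic exit, was at 9.93, 3.35 and 1.73 CPM in CCl4+EtOH kidneys, against 0.997, 0.839 and 0.596 CPM in olive oil kidneys. It was at 0.933, 0.987, 1.004 and 2.07 CPM in CCl4 kidneys and 0.744, 0.989, 0.540 and 0.761 CPM in EtOH kidneys. Its log2 fold change over olive oil was 2.62 ± 0.55 (adjusted p = 0.00284). Among the other regulators, the spindle-pole kinase Aurka rose by 2.33 ± 0.50, the transcription factor Foxm1 by 2.23 ± 0.52, the F-box cyclin Ccnf by 2.64 ± 0.66 and the kinase Melk by 3.74 ± 0.96 on the log2 scale (adjusted p between 0.00307 and 0.00909). Nek2, a kinase of centrosome separation, was the member of this role that was not called. It was at 21.9, 8.88 and 3.41 CPM in CCl4+EtOH kidneys and 4.93, 4.95 and 6.23 CPM in olive oil kidneys, and CCl4+EtOH replicate 3 lay below every olive oil library (log2 fold change 1.09 ± 0.47, adjusted p = 0.088). CCl4 kidneys held 4.77, 5.23, 5.32 and 8.09 CPM of Nek2 and EtOH kidneys 4.66, 5.44, 3.58 and 3.36 CPM.

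**Figure D2:**
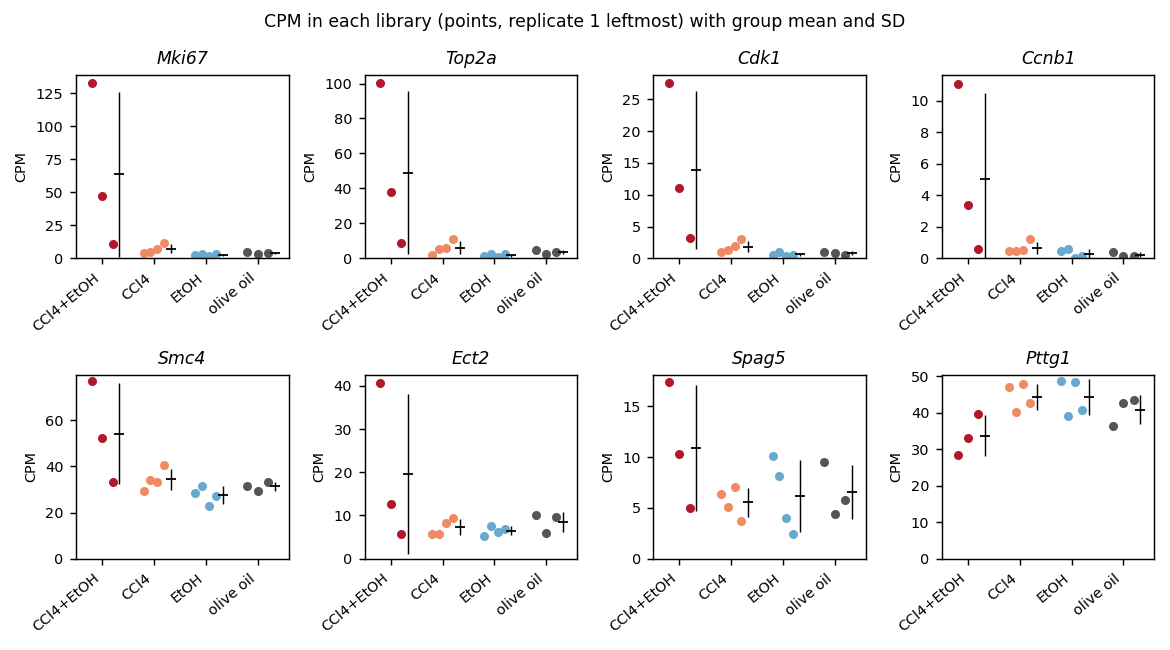
CPM of 8 genes in each library (points, replicate 1 leftmost within a group) with the group mean and SD (bar), on linear axes from 0, with lower bars cut at 0. Mki67, Top2a, Cdk1 and Ccnb1 fan out over the 3 CCl4+EtOH libraries, Smc4, Ect2 and Spag5 less so, and Pttg1 is lower in CCl4+EtOH replicate 1 than in any other library.

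All 3 chromosomal passenger genes rose, with a median log2 fold change of 2.87 over olive oil. This complex corrects faulty kinetochore attachments and then directs cytokinesis. Its kinase Aurkb was at 10.2, 4.197 and 1.08 CPM in CCl4+EtOH kidneys, against 0.939, 0.442 and 0.596 CPM in olive oil kidneys. CCl4 kidneys held 0.8292, 0.642, 0.650 and 0.790 CPM of Aurkb and EtOH kidneys 0.347, 0.544, 0.147 and 0.380 CPM. Every CCl4+EtOH library exceeded all 11 others (log2 fold change over olive oil 2.98 ± 0.63, adjusted p = 0.00296). Birc5, or survivin, the subunit that brings the complex to the centromere, was at 18.4, 5.81 and 1.25 CPM in CCl4+EtOH kidneys and 1.35, 0.795 and 1.36 CPM in olive oil kidneys. Its ranges overlapped, and its log2 fold change was 2.87 ± 0.76 (adjusted p = 0.0108). Cdca8, the borealin subunit, was at 10.6, 5.21 and 1.64 CPM in CCl4+EtOH kidneys and 1.99, 0.928 and 1.36 CPM in olive oil kidneys (2.04 ± 0.54, adjusted p = 0.00994). Of the single treatments, CCl4 kidneys held 0.933, 1.53, 0.650 and 2.68 CPM of Birc5 and EtOH kidneys 0.744, 0.989, 0.392 and 1.01 CPM. Cdca8 was at 1.45, 1.23, 1.77 and 2.68 CPM in CCl4 kidneys and 0.892, 1.04, 0.540 and 1.08 CPM in EtOH kidneys. Both genes were highest in CCl4 replicate 4 among these 8 libraries.

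All 4 spindle checkpoint genes rose, with a median log2 fold change of 3.14. Mad2l1, whose protein binds and blocks Cdc20 at unattached kinetochores, was at 19.0, 10.7 and 3.37 CPM in CCl4+EtOH kidneys and 3.34, 3.45 and 3.41 CPM in olive oil kidneys. Here CCl4+EtOH replicate 3 lay within the olive oil range (log2 fold change over olive oil 1.70 ± 0.42, adjusted p = 0.00782). CCl4 kidneys held 4.35, 4.79, 5.08 and 5.59 CPM of Mad2l1 and EtOH kidneys 3.92, 3.56, 2.75 and 2.54 CPM. Bub1b, the BubR1 protein of the inhibitory complex, was at 25.5, 8.96 and 3.11 CPM in CCl4+EtOH kidneys against 2.17, 2.08 and 2.17 CPM in olive oil kidneys. It was at 2.95, 2.86, 2.24 and 3.28 CPM in CCl4 kidneys and 2.28, 2.08, 1.32 and 1.52 CPM in EtOH kidneys. Its log2 fold change over olive oil was 2.55 ± 0.54 (adjusted p = 0.00321). The kinases Bub1 and Ttk started from lower levels. Bub1 was at 15.4, 4.68 and 0.864 CPM in CCl4+EtOH kidneys, against 0.587, 0.353 and 0.650 CPM in olive oil kidneys, and Ttk at 5.24, 2.38 and 0.604 CPM against 0.117, 0.309 and 0.108 CPM in the same groups. Their log2 fold changes were 3.72 ± 0.94 and 3.84 ± 0.84 (adjusted p = 0.00869 and 0.00367). Ttk, part of the count and median above, passed the filter on low counts only through the CCl4+EtOH libraries.

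Genes of anaphase onset and exit parted into 4 that rose and Pttg1. Cdc20, the activator of the anaphase promoting complex that the checkpoint holds, rose by 2.63 ± 0.64 on the log2 scale (adjusted p = 0.00662). Ube2c, the ubiquitin-conjugating enzyme of that complex, was at 15.1, 5.57 and 1.34 CPM in CCl4+EtOH kidneys against 0.645, 0.618 and 0.867 CPM in olive oil kidneys, and it rose by 3.36 ± 0.68 (adjusted p = 0.00233). Of its exon bases 22.8% are shared with Tnnc2 on the other strand. Espl1, separase, which cuts cohesin, rose by 2.61 ± 0.56 (adjusted p = 0.00315). Cdca3, a factor that promotes mitotic entry through degradation of Wee1, was at 21.4, 6.70 and 2.85 CPM in CCl4+EtOH kidneys and 1.47, 1.02 and 2.11 CPM in olive oil kidneys (2.76 ± 0.57, adjusted p = 0.00264). Cdca3 was at 2.38, 2.37, 2.19 and 3.28 CPM in CCl4 kidneys and 1.49, 1.88, 1.18 and 1.52 CPM in EtOH kidneys.

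Pttg1, securin, holds separase inactive until anaphase, and it went the other way from its partner. It was at 28.3, 33.1 and 39.6 CPM in CCl4+EtOH replicates 1 to 3, against 36.2, 42.7 and 43.6 CPM in olive oil kidneys. CCl4 kidneys held 46.9, 40.2, 47.7 and 42.5 CPM and EtOH kidneys 48.6, 39.0, 48.5 and 40.8 CPM. Within the CCl4+EtOH group, the library highest in the other 49 genes was lowest in Pttg1. Against olive oil the groups overlapped and the log2 difference of -0.28 ± 0.13 did not pass (adjusted p = 0.106). Pttg1 was lower in CCl4+EtOH than in EtOH kidneys (-0.39 ± 0.12, adjusted p = 0.0221) and than in CCl4 kidneys (-0.40 ± 0.12, adjusted p = 0.0212), where every CCl4+EtOH library lay under every CCl4 library. Per kilobase of exon, Pttg1 was also the most abundant of the 50 genes in each group, at 19.1 CPM per kb in CCl4+EtOH kidneys and 23.1 CPM per kb in olive oil kidneys.

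All 5 centromere and kinetochore genes rose, with a median log2 fold change of 2.88. Cenpf, a large kinetochore protein that accumulates in G2, was at 27.4, 10.3 and 2.89 CPM in CCl4+EtOH kidneys, against 0.587, 0.928 and 1.30 CPM in olive oil kidneys. CCl4 kidneys held 0.933, 1.48, 1.71 and 3.22 CPM of Cenpf and EtOH kidneys 0.694, 1.04, 0.343 and 0.507 CPM. Its log2 fold change over olive oil was 3.84 ± 0.71 (adjusted p = 0.00158), with no overlap between these groups. Cenpe, the kinesin that carries chromosomes to the spindle equator, was at 21.2, 10.2 and 2.03 CPM in CCl4+EtOH kidneys and 3.17, 1.86 and 1.90 CPM in olive oil kidneys, so that replicate 3 lay within the olive oil range (2.28 ± 0.60, adjusted p = 0.0108). CCl4 kidneys held 3.01, 2.47, 3.01 and 3.28 CPM of Cenpe and EtOH kidneys 1.19, 2.67, 1.03 and 1.46 CPM. Cenpa, the centromeric histone H3 variant, rose by 2.19 ± 0.48, and the microtubule-binding Ndc80 and Nuf2 by 2.88 ± 0.69 and 3.41 ± 0.83 on the log2 scale (adjusted p between 0.00345 and 0.00707).

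Of the 9 genes for spindle motors and assembly, 8 rose, with a median log2 fold change of 2.84 over all 9. The highest folds were those of Kif2c, a microtubule depolymerase at centromeres, at 3.90 ± 0.83, and of Hmmr, a spindle pole protein and hyaluronan receptor, at 3.87 ± 0.84 (adjusted p = 0.00324 and 0.00377). Kif2c, part of the count and median above, passed the filter on low counts only through the CCl4+EtOH libraries. Tpx2, the Aurora A activator, was at 30.3, 13.0 and 2.33 CPM in CCl4+EtOH kidneys against 1.41, 1.68 and 1.73 CPM in olive oil kidneys (3.24 ± 0.69, adjusted p = 0.0033). The motors Kif11, Kif15, Kif22 and Kif4 rose by between 2.18 and 3.10 on the log2 scale, and 15.1% of the exon bases of Kif4 are shared with Pdzd11 on the other strand. Nusap1, a microtubule bundler, was at 27.3, 11.5 and 5.44 CPM in CCl4+EtOH kidneys and 4.75, 4.15 and 4.28 CPM in olive oil kidneys, with no overlap (1.75 ± 0.46, adjusted p = 0.00994). Nusap1 was at 3.47, 5.23, 4.73 and 7.17 CPM in CCl4 kidneys and 4.36, 4.06, 2.21 and 3.93 CPM in EtOH kidneys. Spag5, or astrin, which steadies spindle poles, did not pass the test. It was at 17.4, 10.3 and 5.01 CPM in CCl4+EtOH kidneys and 9.56, 4.42 and 5.74 CPM in olive oil kidneys (log2 difference 0.74 ± 0.51, adjusted p = 0.277). CCl4 kidneys held 6.32, 5.13, 7.03 and 3.71 CPM of Spag5 and EtOH kidneys 10.1, 8.16, 4.02 and 2.41 CPM, so its groups overlapped in every pairing.

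In cytokinesis, 5 of the 6 genes rose, with a median log2 fold change of 1.94. Kif20a, a kinesin of the central spindle, was at 39.6, 21.4 and 9.89 CPM in CCl4+EtOH kidneys and 10.3, 7.69 and 8.24 CPM in olive oil kidneys (1.44 ± 0.34, adjusted p = 0.00619). CCl4 kidneys held 11.04, 11.99, 9.57 and 10.9 CPM of Kif20a and EtOH kidneys 6.84, 8.75, 8.14 and 8.31 CPM. Of its exon bases 31.8% are shared with Cdc23 on the other strand, and 21.8% of those of Prc1 with Rccd1. Prc1, the bundler of the central spindle, and the contractile ring protein Anln rose most in this role, by 3.39 ± 0.71 and 3.29 ± 0.70 on the log2 scale (adjusted p = 0.00303 and 0.00345). Racgap1 rose by 2.45 ± 0.54 and its centralspindlin partner Kif23 by 0.98 ± 0.31 (adjusted p = 0.00388 and 0.0231). Ect2, the factor that centralspindlin recruits to start the contractile ring, was at 40.6, 12.6 and 5.70 CPM in CCl4+EtOH kidneys and 10.1, 5.83 and 9.59 CPM in olive oil kidneys. Replicate 3 was the lowest of these 6 values, and the log2 difference of 1.21 ± 0.52 did not pass (adjusted p = 0.0827). Ect2 was at 5.70, 5.63, 8.21 and 9.36 CPM in CCl4 kidneys and 5.25, 7.67, 6.08 and 6.91 CPM in EtOH kidneys.

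All 6 genes of chromosome condensation and the chromosome surface rose, with a median log2 fold change of 2.34. Mki67, the Ki-67 protein that coats mitotic chromosomes and is used to stain dividing cells, was at 133, 47.6 and 10.8 CPM in CCl4+EtOH kidneys, against 4.52, 3.36 and 3.96 CPM in olive oil kidneys. CCl4 kidneys held 4.41, 4.79, 7.38 and 11.9 CPM of Mki67 and EtOH kidneys 2.43, 3.26, 1.77 and 3.49 CPM. The groups did not overlap between CCl4+EtOH and olive oil (log2 fold change 4.02 ± 0.72, adjusted p = 0.0015), and CCl4 replicate 4 lay above CCl4+EtOH replicate 3. Top2a, the topoisomerase that untangles sister chromatids, was at 100.2, 38.1 and 8.98 CPM in CCl4+EtOH kidneys, against 4.93, 2.39 and 3.69 CPM in olive oil kidneys. It was at 1.81, 5.38, 5.91 and 11.1 CPM in CCl4 kidneys and 1.29, 2.72, 0.785 and 2.35 CPM in EtOH kidneys, and its log2 fold change over olive oil was 3.76 ± 0.80 (adjusted p = 0.00358). Condensin genes differed among themselves. Ncaph and Ncapg, subunits of condensin I, rose by 2.48 ± 0.54 and 2.19 ± 0.49 on the log2 scale, and the core ATPase Smc2 by 1.56 ± 0.37 (adjusted p between 0.0034 and 0.00575). Ncapg shares 20.8% of its exon bases with Lcorl on the other strand. Smc4, the other core ATPase, was at 77.1, 52.4 and 33.3 CPM in CCl4+EtOH kidneys and 31.6, 29.4 and 33.1 CPM in olive oil kidneys, a log2 fold change of 0.79 ± 0.23 (adjusted p = 0.0159). Smc4 was at 29.4, 34.2, 33.3 and 40.5 CPM in CCl4 kidneys and 28.7, 31.7, 22.8 and 27.2 CPM in EtOH kidneys.

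**Figure D3:**
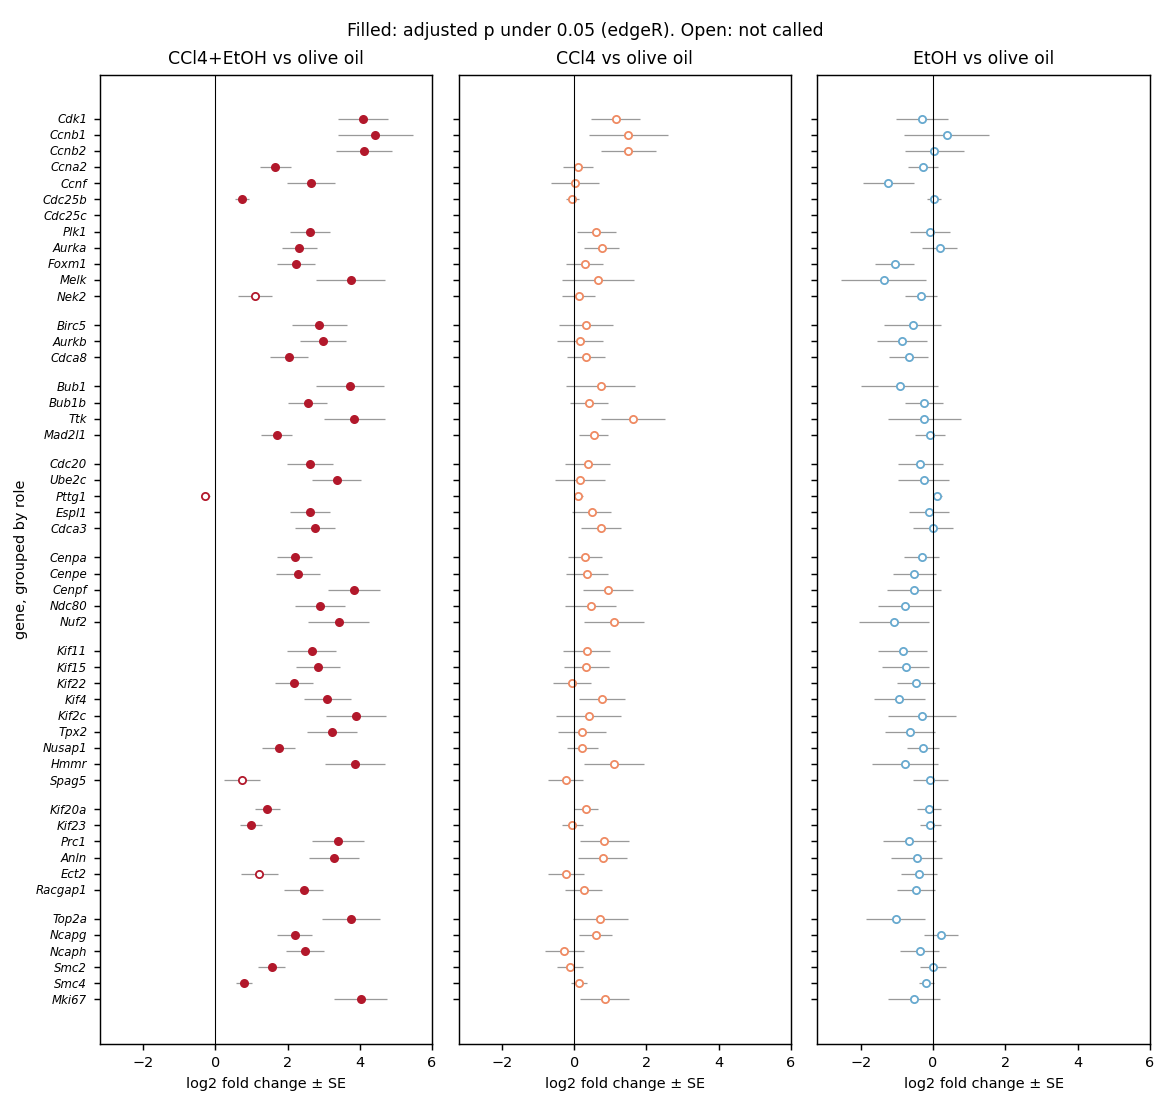
Log2 fold change with its SE of CCl4+EtOH (left), CCl4 (middle) and EtOH (right) over olive oil for the 49 genes tested, in order of role, filled where the adjusted p was under 0.05. On the left, values run from -0.28 for Pttg1 to 4.43 for Ccnb1 and 45 points are filled, on the others 0 are, and Cdc25c has no point because it was not tested.

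Levels in EtOH kidneys differed widely among the genes. Per kilobase of exon in the EtOH libraries, which the contrast with olive oil does not use, Pttg1 stood at 25.1 CPM per kb, Smc4 at 6.39, Cdc25b at 4.07 and Kif23 at 2.12. At the low end, Cdc25c stood at 0.0317 CPM per kb, Melk at 0.0526, Ttk at 0.0535 and Cenpf at 0.0580. The log2 folds over olive oil of the first 4 were -0.28, 0.79, 0.74 and 0.98. No relation between level and fold is drawn from the low end, because Cdc25c was not tested and Ttk and Kif2c entered the test through the CCl4+EtOH libraries. In CCl4+EtOH kidneys the order was different, with Pttg1 and Smc4, at 12.6 CPM per kb, followed by Top2a at 9.40, Ccna2 at 7.78 and Ccnb2 at 7.33. Lengths are those of merged exons in GENCODE M21, and 13 of the 50 genes share exon bases with another annotated gene there.

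**Figure D4:**
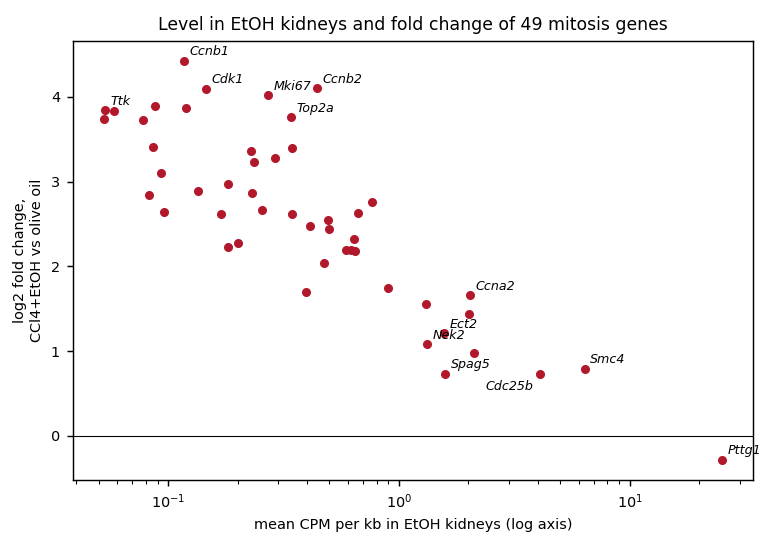
Log2 fold change of CCl4+EtOH over olive oil against the mean CPM per kb in EtOH libraries (log axis) for the 49 genes tested, 1 point a gene. Pttg1 lies at the bottom right, at 25.1 CPM per kb and a log2 value of -0.28, and at the low end the filter kept Ttk and Kif2c through their CCl4+EtOH counts and left out Cdc25c.

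Beside CCl4+EtOH and olive oil, the CCl4+EtOH group was set against each single treatment. Against EtOH kidneys, which had olive oil in place of CCl4 and the same 4 weeks of EtOH, 47 of the 49 genes were higher and Pttg1 was lower, where 18.1% of all genes were called higher and 16.2% lower. The median log2 fold change was 2.98, and Spag5 was the member not called (0.81 ± 0.47, adjusted p = 0.199). Against CCl4 kidneys, 46 were higher and Pttg1 was lower, where 18.7% of all genes were called higher and 16.2% lower, with a median log2 fold change of 2.25. Nek2 (0.96 ± 0.43, adjusted p = 0.0989) and Spag5 (0.97 ± 0.47, adjusted p = 0.127) were not called there. The CCl4+EtOH libraries all lay above every CCl4 library in 8 of the 50 genes, where 18.1% of all genes tested did. They lay below every CCl4 library in Pttg1, where 17% of all genes did, and the ranges of the other 41 genes overlapped. Against the EtOH libraries they all lay above in 40 of the 50, where 17.1% of all genes did. Mki67 differed by 4.55 ± 0.67 on the log2 scale from EtOH and by 3.17 ± 0.61 from CCl4 (adjusted p = 0.000568 and 0.00221), and Ect2 passed in both, at 1.60 ± 0.48 and 1.45 ± 0.48 (adjusted p = 0.0207 and 0.0315). These comparisons use the same 3 CCl4+EtOH libraries. Without CCl4+EtOH replicate 1, 18 of the genes were called higher against CCl4 kidneys, where 11.5% of all genes were, and the median log2 fold change of the members was 1.33. With only EtOH replicate 4 in the EtOH group, 0 were called against EtOH kidneys, where 0.864% of all genes were called higher and 1.13% lower, and the median log2 fold change of the members was 3.10.

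The single treatments were then set against olive oil. In EtOH kidneys 0 of the 49 genes were called in either direction, where 0.0807% of all genes were called higher and 0.0869% lower, and 0 passed at an unadjusted p under 0.05, where 10.4% of all genes did. Their median log2 difference was -0.35, and 43 of the 49 were below 0. All 4 EtOH libraries lay below all 3 olive oil libraries in 5 of the 50 genes, namely Ccnf, Foxm1, Hmmr, Kif15 and Tpx2, and above them in 0, where 6.69% and 5.2% of all genes did. Top2a stood at -1.03 ± 0.82, Aurkb at -0.87 ± 0.69 and Mki67 at -0.53 ± 0.72 (adjusted p between 0.756 and 0.887). In CCl4 kidneys 0 of 49 were called, where 0% of all genes were, and 0 passed at an unadjusted p under 0.05, where 3.97% of all genes did. Their median log2 difference was 0.36, with 42 above 0, among them Ttk at 1.63 ± 0.88, Ccnb1 at 1.502 ± 1.09 and Cdk1 at 1.15 ± 0.67 (adjusted p = 1). All 4 CCl4 libraries lay above all 3 olive oil libraries in 7 of the 50 genes, namely Aurka, Bub1b, Ccnb1, Ccnb2, Cdca3, Mad2l1 and Ttk, and below them in 0, where 3.47% and 3.74% of all genes did. DESeq2 and limma-voom called 0 of the 49 in both comparisons. Both comparisons share the olive oil libraries.

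EtOH replicates 1 to 3 also held transcripts of the adrenal cortex, a gland that lies on the kidney. Its 6 markers summed to 774, 706 and 1112 CPM there, against 9.19 CPM in EtOH replicate 4, 5.52 to 7.25 CPM in CCl4+EtOH kidneys, 6.17 to 26.8 CPM in CCl4 kidneys and 6.77 to 8.26 CPM in olive oil kidneys. The part of this admixture in the mitosis gene values was not tested. EtOH replicate 4, with adrenal markers near the other groups, summed to 164 CPM over the 50 genes, within the 158 to 185 CPM of the others.

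Within the CCl4 group, replicate 4 stood apart from the other libraries. It had the highest level of the group in 41 of the 50 genes and the lowest in 1, where 25% and 23.3% of all genes tested were highest and lowest in it. It lay above all 7 olive oil and EtOH libraries in 40 genes, where 11% of all genes did. Mki67 was at 11.9 CPM in it and at 4.41 to 7.38 CPM in the other CCl4 kidneys, and Hmmr at 3.59 CPM against 0.570 to 1.48 CPM. Replicate 3, on the same schedule, was highest in the group in 3 genes and lowest in 12, where 25.4% and 26.7% of all genes were. Between the schedules, longer against 6 weeks, 0 of the 50 genes in that fit were called, where 0% of all genes were. The single gene at an unadjusted p under 0.05 was Bub1, where 6.67% of all genes passed, at 2.74 ± 1.13 on the log2 scale (adjusted p = 0.699).

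Within the CCl4+EtOH group, the genes kept nearly 1 order of libraries. Replicate 1 was above replicate 2 in 49 of the 50 genes and replicate 2 above replicate 3 in 49, where 52.5% and 50.7% of all genes tested were, and Pttg1 was the exception in both. The ratio of replicate 1 to replicate 3 had a median of 7.80 over the 50 genes and ran from 0.715 for Pttg1 to 19.7 for Ccnb1, with 1.70 as the lowest of the other 49. Replicates 1 and 2 both lay above all 11 libraries of the other groups in 49 genes and below them in Pttg1, where 23.4% and 21.8% of all genes did. Replicate 3 did so in 5, namely Cdk1, Aurkb, Ube2c, Cenpa and Ncaph, where 16% of all genes did. Replicate 3 was above all 3 olive oil libraries in 36 genes and below them in 2, where 35.1% and 32.3% of all genes were. Across role groups, its median log2 difference from the olive oil mean ran from 0.19 for the chromosomal passengers to 0.61 for anaphase onset and exit, against 2.64 to 3.45 in replicate 1.

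On the log2 scale the combined change exceeded the sum of the single ones for some of the genes. The interaction, the change of CCl4+EtOH over EtOH minus that of CCl4 over olive oil, was called positive for 18 of the 49 genes and negative for 0, where 5.49% of all genes were called positive and 3.63% negative. The median was 2.61 on the log2 scale, and 44 passed at an unadjusted p under 0.05, where 28.6% of all genes did. The smallest adjusted p belonged to the condensin subunit Ncaph, at 3.13 ± 0.73 (adjusted p = 0.0224), followed by Foxm1 at 2.998 ± 0.71 and Ccnf at 3.87 ± 0.92 (adjusted p = 0.0241 for both). Mki67 stood at 3.70 ± 0.94, Top2a at 4.07 ± 1.06, Aurkb at 3.68 ± 0.89, Tpx2 at 3.66 ± 0.92, Cenpf at 3.42 ± 0.96 and Cdk1 at 3.26 ± 0.93 (adjusted p between 0.0245 and 0.0457). Ccnb1, the gene with the highest fold over olive oil, was not called (2.55 ± 1.499, adjusted p = 0.283). The count was 0 without CCl4+EtOH replicate 1, without CCl4+EtOH replicate 2, without olive oil replicate 1 or with EtOH replicate 4 alone, where 1.32%, 1.21%, 1.2% and 0% of all genes were called positive. It was 47 without CCl4+EtOH replicate 3, where 14.5% of all genes were. In these 5 fits the median over the members lay between 1.77 and 3.08 on the log2 scale. Leaving out CCl4 replicate 4 gave 14, where 3.37% of all genes were called positive. Leaving out any of the remaining libraries gave 2 to 9, where 2.26% to 4.44% of all genes were. DESeq2 called 38 and limma-voom 39, where 8.27% and 15% of all genes were called positive.

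Other genes of the division cycle were counted in the same fits, from lists picked with earlier results known. The counts of these lists and of the cell type markers stand against 18.9% of all genes called higher and 16.6% lower in the same contrast. Of 67 further mitosis genes tested from 71 in the table, 48 were higher in CCl4+EtOH than in olive oil kidneys and 0 lower, with a median log2 fold change of 1.59. Hjurp, the chaperone that loads Cenpa, had the smallest p and a small change, at 79.3 ± 14.4 CPM (SD, n = 3) in CCl4+EtOH kidneys against 44.7 ± 4.13 CPM (SD, n = 3) in olive oil kidneys (log2 fold change 0.83 ± 0.13, adjusted p = 0.000644). The spindle proteins Psrc1 and Ckap2l rose by 2.84 ± 0.48 and 4.25 ± 0.77 (adjusted p = 0.000848 and 0.00129). Of 30 genes of G1 and S phase, 25 were higher and 0 lower, with a median of 1.005, among them the ribonucleotide reductase subunit Rrm1 (1.12 ± 0.19), the histone chaperone subunit Chaf1b (2.63 ± 0.45) and the DNA polymerase subunit Pola1 (1.42 ± 0.25), at adjusted p between 0.000858 and 0.00106.

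Of 11 genes that restrain the G2 to M step, 7 rose and 0 fell, where 18.9% and 16.6% of all genes did, with a median log2 fold change of 1.31. The other 4, Chek2, Gadd45a, Fbxo5 and Ccng1, stood between -0.03 and 0.73 and did not pass (adjusted p between 0.0749 and 0.889). Sfn, 14-3-3 sigma, rose by 2.03 ± 0.34, the checkpoint kinase Chek1 by 2.39 ± 0.43 and the Cdk inhibitor Cdkn1a, p21, by 1.78 ± 0.33 (adjusted p = 0.00079, 0.0012 and 0.0015). Cdkn1a ranged from 12.5 to 40.2 CPM in CCl4+EtOH kidneys, against 7.70 to 10.03 CPM in olive oil kidneys. The 14 genes listed for the anaphase promoting complex, among them its activator Fzr1 and its enzyme Ube2s, had a median of 0.17, where 3 higher and 1 lower are near the shares over all genes. In that list Anapc1, Anapc4 and Cdc23 were higher by 0.31 ± 0.08, 0.33 ± 0.09 and 0.32 ± 0.10 (adjusted p between 0.00895 and 0.022). Anapc13 fell by 0.67 ± 0.13, with 26.2 to 38.3 CPM in CCl4+EtOH and 47.7 to 50.5 CPM in olive oil kidneys (adjusted p = 0.0016). Of 17 DREAM and E2F regulators, 6 rose and 2 fell, with a median of 0.13, beside 0.02 over all genes tested. Tfdp1 rose by 0.52 ± 0.11 and E2f8 by 2.49 ± 0.57, and the DREAM subunit Lin52 and the pocket protein Rbl2 (p130) fell by 0.51 ± 0.14 and 0.43 ± 0.12 (adjusted p between 0.00356 and 0.0137).

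**Figure D5:**
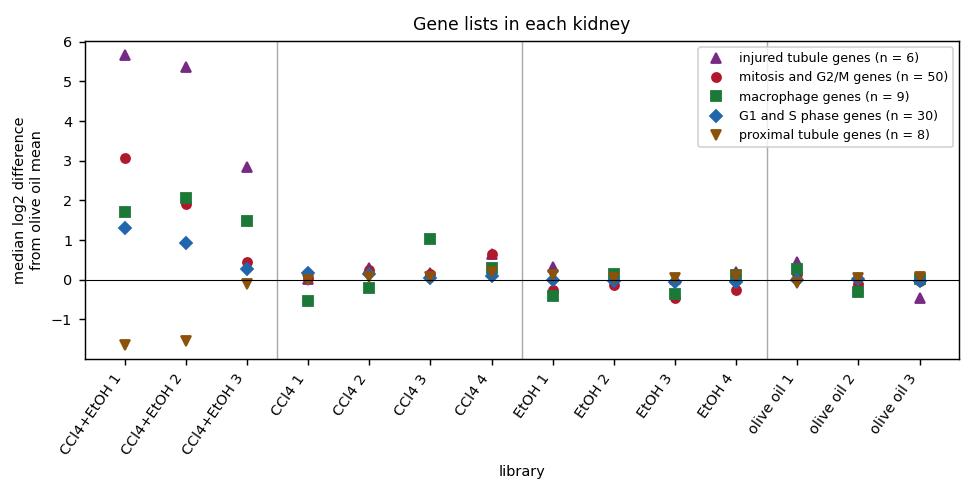
Median log2 difference from the olive oil mean, in each of the 14 libraries, over the 50 genes and over other gene lists. In CCl4+EtOH replicates 1, 2 and 3 the median of the 50 genes is 3.07, 1.90 and 0.46, that of the injured tubule markers 5.66, 5.37 and 2.85, and that of the proximal tubule markers -1.63, -1.53 and -0.10.

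Markers of other cell types moved with the mitosis genes in part. Of all genes tested, 18.9% were higher and 16.6% lower in CCl4+EtOH than in olive oil kidneys. All 6 injured tubule markers, which include Havcr1 (Kim-1) and Lcn2 (NGAL), rose in CCl4+EtOH kidneys, and their sum was 37009, 26927 and 4627 CPM in replicates 1 to 3, against 680 to 1185 CPM in olive oil kidneys. The injured tubule sum was thus in the same order of replicates as the mitosis genes, and so was the fibroblast and pericyte sum given below. Of 9 macrophage markers 8 rose, and their sum was 714, 849 and 610 CPM in CCl4+EtOH kidneys against 228 to 341 CPM in olive oil kidneys. The macrophage sum was highest in replicate 2, not replicate 1, and it reached 521 CPM in CCl4 replicate 3, where the mitosis gene sum was 217 CPM. The part of macrophages in the result was not tested. The 7 fibroblast and pericyte markers summed to 2112, 1142 and 901 CPM in CCl4+EtOH replicates 1 to 3 and 413 to 941 CPM in olive oil kidneys, and 4 of them rose.

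Blood cell precursors were followed because they divide. The 5 erythroid precursor markers summed to 101, 106 and 463 CPM in CCl4+EtOH replicates 1 to 3, against 183 to 218 CPM in olive oil kidneys. Of the 5, 0 were called higher and 1 lower, where 18.9% and 16.6% of all genes were. The 7 T and NK markers summed to 6.34 to 10.3 CPM in CCl4+EtOH and 6.12 to 8.51 CPM in olive oil kidneys, and the 5 B cell markers to 2.70 to 5.84 CPM and 2.58 to 4.81 CPM in those groups, with 0 of either list called in that contrast. Against EtOH kidneys, 3 of the 7 T and NK markers were higher in CCl4+EtOH kidneys, with a median log2 fold change of 0.89 and all 7 above 0, where 18.1% of all genes were called higher. The T cell receptor gene Cd3e was at 0.363 to 0.437 CPM in CCl4+EtOH kidneys. Of the 8 proximal tubule markers 4 fell in CCl4+EtOH against olive oil kidneys, where 16.6% of all genes did, and their sum, given at the start, was low in replicates 1 and 2 and within the olive oil range in replicate 3. Of 4 loop and distal tubule markers 2 fell, and of 6 collecting duct markers 2 fell, with median log2 fold changes of -0.64 and -0.44. The loop and distal sum was 5177, 6192 and 7831 CPM in CCl4+EtOH replicates 1 to 3, and the collecting duct sum 177, 238 and 328 CPM. Of 5 podocyte markers 1 rose, and of 5 endothelial markers 0 were called. The part of these cell types in the mitosis gene values was not tested.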

How the data were processed

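RNA of frozen kidneys was extracted with a spin-column kit and sequenced after a standard Illumina preparation, per the labels' protocols. The authors deposited unnormalized counts of reads for each symbol and mouse; GSNAP and mm9 are named per the submitters' processing notes. Which program counted, on which annotation and with what strand setting is not given in the sources used here. Of 23893 entries, 27 bore a date as their name and were left out (0.168% to 0.209% of counts). None of the 50 genes had counts identical to another gene. Chi-square per gene between libraries of a group was at least 10.3 over 18 pairs, so no pair of libraries agreed within sampling noise. Each title holds its own mouse number, and p-values reflect the variation among those mice, with a spread for each gene shared over the 4 groups. That spread was unequal for these genes. The SD of their mean log2 level was 1.30 in CCl4+EtOH, 0.32 in CCl4, 0.14 in EtOH and 0.12 in olive oil kidneys. The p-values of CCl4+EtOH contrasts thus do not measure the variation among CCl4+EtOH mice alone.

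Testing used edgeR 4.0.16 (R 4.3.3): filterByExpr by group, TMM, the robust quasi-likelihood F test on 14 libraries in 4 groups, Benjamini-Hochberg adjustment over 16105 genes, and a threshold of 0.05. Adjusted p-values come from it where no other tool is given. SE was taken as |log2 fold change| over the root of F. For the 2 CCl4 schedules, 5 groups and 16442 genes were fitted. Log2 levels use a pseudocount of 0.5 CPM. Floors of 3 counts cover counting error only. On simulated data for CCl4+EtOH against olive oil with 200 of 16105 genes changed, 26.9%, 62.7% and 87.9% of changes of 1.5-fold, 2-fold and 4-fold were recovered, with 7 false calls of 125. The simulation drew each gene on its own, with the same spread in all groups. In the data the spread was unequal and far more genes were called, so these rates may not hold for this contrast.

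The members and lists were chosen with earlier results of these data known. Values in every library are given for Mki67, Cdk1, Ccnb1, Top2a, Plk1 and Aurkb, for the 2 most abundant members of each role, and for members untested or called unlike most. Other members are named by role, chosen after their values were seen. From the other lists of division cycle genes the 3 smallest p and those called lower are named. Cell type markers are given mostly as sums and counts. Alternatives were DESeq2 1.42.0 and its size factors, limma-voom (limma 3.58.1) with quality weights, no filter on low counts, 5 groups, only the groups compared, a term for low or high title numbers, other pseudocounts, and leaving out libraries.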

Additional observations from a re-analysis of the deposited data

Results flagged for a closer look

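Genes and means over genes were checked within the CCl4 and the EtOH group, each of 4 libraries. In 4 of 64 such checks, 1 library lay far outside the range of the others. Chance gives about 1 in 20 for a single check. The checks share the same kidneys and the genes move together, so the 4 cannot be set against that rate. On the log2(CPM + 0.5) scale, CCl4 replicate 4 stood at 0.779 for Ccnb1, with the other CCl4 libraries between -0.08 and 0.04. It stood at 1.36 for Plk1, with the others between 0.52 and 0.59, and at 3.717 for Ccna2, with the others between 3.16 and 3.22. EtOH replicate 3 stood at 1.437 for Nusap1, with the other EtOH libraries between 2.15 and 2.28.

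The change of CCl4+EtOH over EtOH differed from that of CCl4 over olive oil in 5 of the genes given in every library, by edgeR's interaction term. The log2 values were 3.68 ± 0.89 for Aurkb, 3.26 ± 0.93 for Cdk1, 3.42 ± 0.96 for Cenpf, 3.70 ± 0.94 for Mki67 and 4.07 ± 1.06 for Top2a (adjusted p = 0.0245, 0.0457, 0.0442, 0.0326 and 0.036). In each of them all 3 CCl4+EtOH libraries lay above all 4 EtOH libraries, where 17.1% of all genes did. They also lay above all 4 CCl4 libraries in Aurkb and Cdk1, where 18.1% of all genes did. In Cenpf, Mki67 and Top2a the ranges of CCl4+EtOH and CCl4 overlapped. Of all genes tested, 5.49% were called positive. Over 14 fits that each left out 1 library, the calls held in 10 for Aurkb, 5 for Mki67, 4 for Top2a, 2 for Cdk1 and 2 for Cenpf.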

How the results depend on the processing

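Counts are of mitosis genes called by adjusted p. For CCl4+EtOH over olive oil (45 higher, 0 lower), a term for title numbers left 15 higher, limma-voom called 1 lower (Pttg1), and leaving out a library gave 36 to 48 higher and 0 to 1 lower. For CCl4+EtOH over EtOH (47 and 1), 0 and 0 were called with EtOH replicate 4 alone, 0 lower in a fit of only the groups compared, and 43 to 48 higher and 0 to 1 lower without a library. For CCl4+EtOH over CCl4 (46 and 1), the term for title numbers left 0 lower, and leaving out a library gave 18 (without CCl4+EtOH replicate 1) to 49 higher and 0 to 1 lower. The interaction (18 and 0) became 38 and 1 with DESeq2, 39 and 1 with limma-voom, 9 with no filter, 0 with EtOH replicate 4 alone, and 0 to 47 higher and 0 to 1 lower without a library. The fit with no filter called 3.37% of all genes positive in the interaction. The mean log2 level of the mitosis genes was 1.80 higher in CCl4+EtOH than in olive oil kidneys, 2.08 and 1.31 with pseudocounts of 0.1 and 2. Apart from fewer samples or genes in a fit, the cause was not tested. Among the genes given in every library, no fold of CCl4+EtOH over another group and no interaction changed sign in the alternatives run, and EtOH or CCl4 over olive oil gave 0 calls in all of them. A lone EtOH library takes the spread of the other groups in these fits. No paired analysis was possible because replicate numbers follow accession order and the titles share no numbers between groups. A level of 3 counts was 0.119 to 0.190 CPM in these libraries, which limits Cdc25c, Ccnb1, Ttk, Melk, Bub1 and Nuf2 outside the CCl4+EtOH group.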
